A study of Homo sapiens with 6 samples.

Results

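Chromosome 19 carries a large share of the human genes for C2H2 zinc finger proteins, and 239 of the 30015 genes in the table met the rule used here: protein-coding, on chromosome 19, and named ZNF followed by a number and at most 1 letter. The rule used names and positions and no measured value, and 232 of the 239 are listed as zf-C2H2 transcription factors in the table. The RNA came from HMV-II cells, an established human mucosal melanoma line, in 3 libraries of control cells (Vector, labelled wild type) and 3 libraries of cells with EZH2 knockdown by a short hairpin RNA (shEZH2). EZH2 is the methyltransferase of Polycomb repressive complex 2, which marks silenced genes. Both groups were grown in the same medium and labelled as untreated, and the methods describe stable lentiviral lines under puromycin selection, with a scrambled hairpin as the control. The labels do not say whether the replicates were separate cultures, so p-values measure the spread between these libraries, which may be technical.

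Most zinc finger genes of this chromosome stand in clusters of close relatives that arose by repeated duplication. Many of their proteins pair a KRAB domain with a row of C2H2 fingers. The fingers bind DNA, often within transposable elements, and the KRAB domain recruits TRIM28, which brings the H3K9 methyltransferase SETDB1 and HP1 proteins that hold chromatin closed.

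The repeated architecture is visible in the transcripts. The run of bases held by the most members is shown, with capitals marking the stretch that encodes the conserved linker between neighbouring fingers:
most shared run: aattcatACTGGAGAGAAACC
It was found in the canonical transcripts (GENCODE, GRCh37) of 71 of the 236 members that have one. The linker motif ACNGGNGANAANCC, searched on the transcript's own strand, occurred at least once in 85.1% of the tested members with a transcript and in 3.65% of all tested protein-coding genes. The median was 6 copies per tested member and the highest was 25. Because relatives resemble each other, the transcripts were compared for shared runs of 100 bases. Pairs of genes that overlap on the chromosome were left out of this comparison, so sequence shared within such pairs was not measured. Runs shared with another gene made up over 10% of the transcript's 100-base runs in 9 members and over 1% in 30, and 180 had none. No member called with all 6 libraries and with a transcript (24 of 25) was over 10%, the highest being 3.35% for ZNF765, whose closest partner was ZNF813. ZNF799, called only without Vector replicate 2, was at 14.1%, with ZNF443 as its closest partner.

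EZH2 itself had 483, 437 and 552 normalized counts in Vector replicates 1 to 3 and 237, 247 and 225 in shEZH2 replicates 1 to 3. All shEZH2 libraries were below all Vector libraries. The log2 fold change was −1.04 (SE 0.14, limma adjusted p = 0.0142; exact two-sided permutation p = 0.1, the smallest that 3 libraries against 3 allow), and −1.12 without Vector replicate 2. The melanocyte lineage markers were present, PMEL at 48607 or more and SOX10 at 13186 or more normalized counts in every library. Of the 8 on the list, 2 were called higher and 1 lower, against 7.55% and 7.07% of all genes. These were TYRP1 (log2 fold change 1.68, or 1.64 without Vector replicate 2), MLANA (0.88, or 0.39 and not called) and TYR (−0.97, or −1.22). The immune marker PTPRC was at 11.6 or fewer. Of the other cell types' markers, the epithelial CDH1 (329 to 428) was also detected. The other epithelial genes listed were low in every library, with KRT14 at 10.5 or fewer, EPCAM at 4.07 or fewer and TP63 at 2.86 or fewer. The endothelial VWF was at 67.5 in Vector replicate 2 and at 19.1 to 24.1 in the other libraries, and was not called. Of the 5 fibroblast genes 2 were abundant enough to test and went opposite ways, LUM called higher (log2 fold change 0.74) and COL1A2 called lower (−0.83). The summed level of the fibroblast genes was 176 to 246 normalized counts in Vector and 250.4 to 314 in shEZH2 libraries, and their part in the results was not tested. Depth was 13400290 to 15923029 reads in Vector and 16129171 to 19128939 reads in shEZH2 libraries. Vector replicate 2 stood apart: over all genes tested, its median absolute log2 difference from Vector replicates 1 and 3 was 0.485 and 0.481, whereas these differed from each other by 0.104. The main results below are therefore given with and without that library.

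The members were low-abundance genes. Their share of all reads was 0.262%, 0.312% and 0.269% in Vector replicates 1 to 3 and 0.245%, 0.262% and 0.241% in shEZH2 replicates 1 to 3, so that the highest shEZH2 library was just under the lowest Vector library. A mean of 10 normalized counts over the 6 libraries was reached by 203 members, which were tested, and not by 36. Per kilobase of gene length (the value listed with the counts, not the genomic span), the median level of the tested members was 23.0 normalized counts, against 90.9 for all tested protein-coding genes. ZNF146, a protein made almost entirely of zinc fingers and lacking a KRAB domain, was the most abundant by both measures, at 1865 normalized counts and 450 per kilobase. Of the 36 members not tested, 10 had a mean under 1 and the highest mean was 8.83. In 5 of them the shEZH2 libraries all lay above the Vector libraries and in 2 all below. ZNF443 had 5.23, 4.66 and 1.02 normalized counts in Vector and 12.4, 15.2 and 13.4 in shEZH2, and it shares 14.9% of its transcript with other genes, ZNF799 first. With no minimum set, 4 of the 36 met the threshold used below for a call, all higher and none after adjustment (limma). The matching shares over all genes under the minimum were not computed, so these counts are not a result about the members.

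More members lay below than above their control level. The median log2 fold change (shEZH2 over Vector, on the log2(normalized count + 1) scale) of the 203 tested members was −0.18, and 134 of them (66.0%) were below 0. Over all 15251 genes tested the median was 0.04 and 46.5% were below 0. Without Vector replicate 2 the members' median was −0.15, with 136 (67.0%) below 0, against −0.006 over all genes. The 224 tested ZNF genes of other chromosomes had a median of −0.12, or −0.08 without that library. The 698 other tested protein-coding genes of chromosome 19 had a median of 0.25, or 0.09 without it. A lower median than that of all genes was thus seen in ZNF genes on and off chromosome 19, and a higher one in the remaining genes of the chromosome. In bulk RNA, fewer cells expressing a gene and less RNA per cell cannot be told apart.

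A gene was called at the threshold of the study, an unadjusted limma p under 0.05 with a change over 1.5-fold. By this rule 18 members (8.87%) were called lower, against 7.07% of all genes, and 7 (3.45%) were called higher, against 7.55% of all genes. The share called lower was thus near the background, and the share called higher was below it. When Vector replicate 2 was left out, 15 were called lower and 9 higher, against 5.64% and 7.05% of all genes. Of the ZNF genes on other chromosomes, 35 (15.6%) were called lower and 5 higher with all libraries, and 23 (10.3%) and 8 without Vector replicate 2. The groups did not overlap in 59 members that were lower and 21 that were higher, against 16.5% and 18.4% of all genes. The counts without Vector replicate 2 were 71 and 28, against 24.9% and 25.1%. After Benjamini-Hochberg adjustment over all genes tested, 6 members were lower and 1 was higher at an adjusted limma p under 0.05, against 1.84% and 2.28% of all genes. Without Vector replicate 2, 21 were lower and 6 higher, against 9.07% and 9.78%. With any 1 of the other 5 libraries left out, 0 members passed the adjusted threshold, while 14 to 24 were called lower and 6 to 9 higher at the unadjusted one.

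All 7 genes called higher kept the call without Vector replicate 2, as did 11 of the 18 called lower. The calls of ZNF121, ZNF221, ZNF569, ZNF616, ZNF714, ZNF761 and ZNF780B were lost without it, and those of ZNF112, ZNF146, ZNF480 and ZNF577 (lower) and ZNF418 and ZNF799 (higher) were gained. No called member turned sign. The log2 fold changes of ZNF221, ZNF569 and ZNF780B were −0.78, −0.60 and −0.78 with all libraries and −0.48, −0.45 and −0.54 without it, and ZNF221 kept its call in only 1 of the 6 fits with 1 library left out. Over the 203 members the log2 fold changes with and without that library had a Pearson r of 0.91, but the fits share 5 of their 6 libraries.

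The changes were unevenly spread along the chromosome. Ordered by gene start, the tested members fell into 15 positional groups separated by over 1 Mb, of which 8 held at least 5 members and 190 members in all. The group from ZNF175 to ZNF331, whose gene starts run from 51571298 to 53519527 on chromosome 19 (GRCh38), held 33 tested members and 9 of the 18 called lower. Its median log2 fold change was −0.40, and −0.42 without Vector replicate 2. With and without that library 9 of its members (27.3%) were called lower and 1 higher. The shares of all genes called lower were 7.07% and 5.64%, and those called higher 7.55% and 7.05%. ZNF480 and ZNF577 took the place of ZNF616 and ZNF761 among the lower ones when Vector replicate 2 was left out. In 21 of the 33 (63.6%) the shEZH2 libraries all lay below the Vector libraries, against 16.5% of all genes. The group is described because it held the most lower calls in these same libraries, so its shares are not an independent result. The 170 tested members elsewhere had a median of −0.14, or −0.12 without Vector replicate 2, and 9 of them (5.29%) were called lower. The 10 other genes tested between the ends of the group had a median of 0.27, or 0.20 without Vector replicate 2, with 1 called higher (the antisense RNA ZNF528-AS1) and 0 lower.

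**Figure D1:**
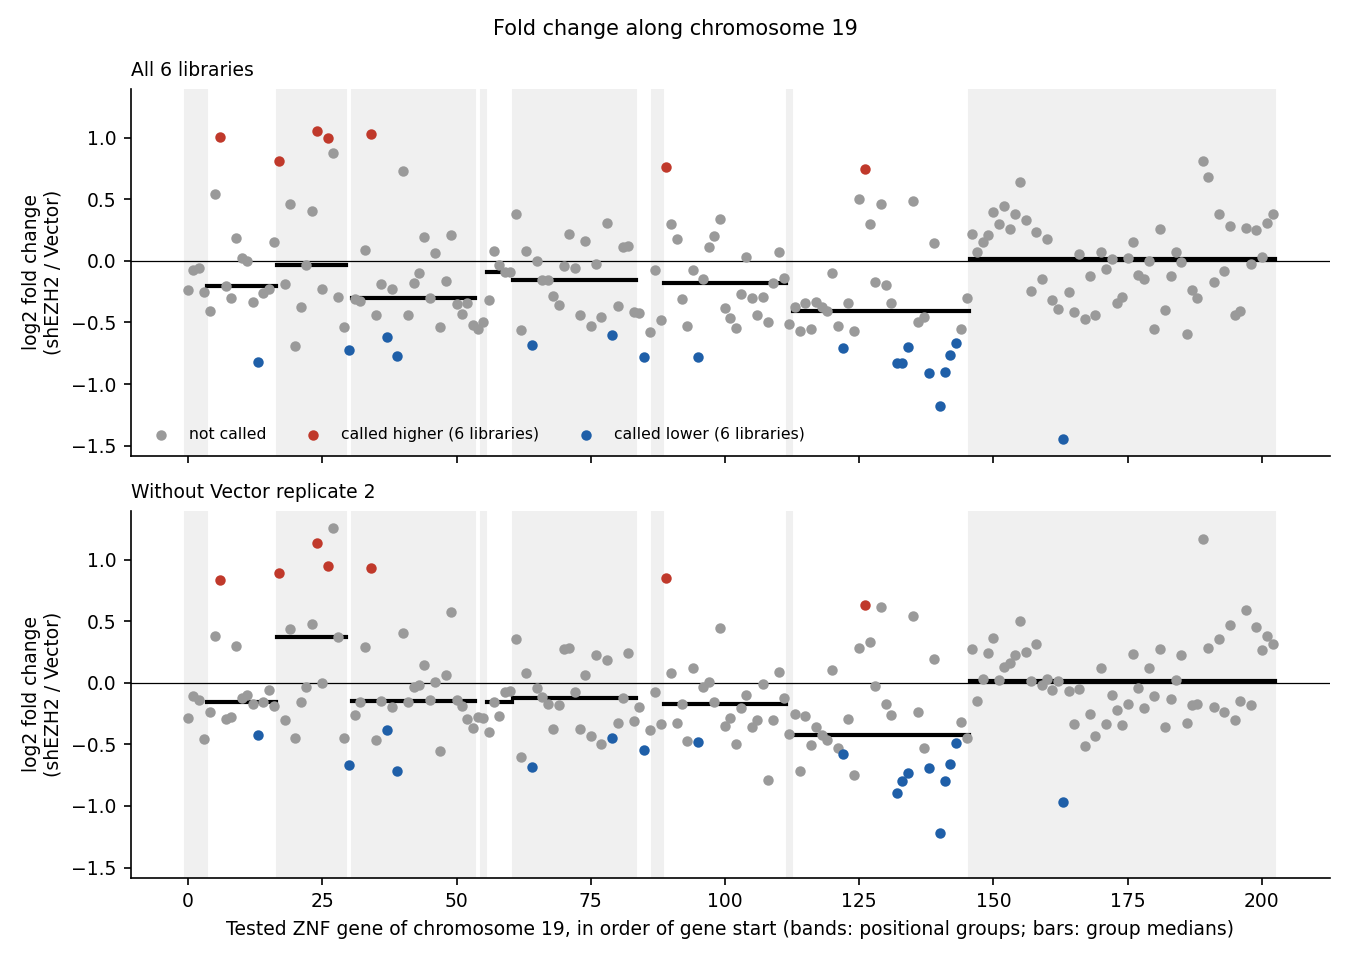
Log2 fold change (shEZH2 over Vector, vertical axis) of the 203 tested ZNF genes in order of gene start (horizontal axis), with all 6 libraries above and without Vector replicate 2 below; shaded and white bands are positional groups, black bars the medians of groups with at least 5 genes, and colours the calls with 6 libraries. Of the 18 genes called lower, 9 lie in the group of 33 whose bar is at −0.40 (−0.42 below), while the last group of 57 has its bar at 0.02 (0.01 below).

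Within the ZNF175 to ZNF331 group, ZNF845 had the lowest log2 fold change. It had 309.5, 300.4 and 345 normalized counts in Vector and 110.5, 169 and 147 in shEZH2 replicates 1 to 3. The highest shEZH2 library lay well below the lowest Vector library. The log2 fold change was −1.18 (SE 0.19, limma adjusted p = 0.0224), and −1.22 without Vector replicate 2. ZNF845 (GRCh38 chr19:53333746-53356906, plus strand) kept its call in each of the 6 fits with 1 library left out and in 13 of 13 other alternatives.

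In the same group, ZNF28, ZNF600 and the next gene along, ZNF525, were also lower after adjustment. ZNF28 had 316, 357 and 347 normalized counts in Vector and 185, 212 and 177 in shEZH2 (log2 fold change −0.83, SE 0.15, limma adjusted p = 0.0273), and −0.79 without Vector replicate 2. ZNF600 had 225, 182 and 194 in Vector and 122, 115 and 100.2 in shEZH2 (−0.83, SE 0.17, limma adjusted p = 0.0387), and −0.89 without it. ZNF525 had 155, 204 and 168 in Vector and 98.1, 102 and 79.2 in shEZH2 (−0.91, SE 0.19, limma adjusted p = 0.0423), and −0.79 without it. In all 3 genes the highest shEZH2 library was below the lowest Vector library, and the calls were kept without Vector replicate 2.

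The remaining called-lower genes of the group passed only the unadjusted threshold with all libraries. ZNF160, the most abundant member there, had 437, 657 and 393 normalized counts in Vector and 239, 289 and 243 in shEZH2, a log2 fold change of −0.91 (SE 0.21, limma adjusted p = 0.0609) that was −0.69 without Vector replicate 2, its highest library. ZNF468, ZNF765, ZNF616 and ZNF761 had log2 fold changes of −0.70, −0.76, −0.71 and −0.66. With a length trend removed, ZNF468 and ZNF765 were at −0.53 and −0.57, just short of the 1.5-fold threshold. ZNF616 without Vector replicate 2 was at −0.57 and ZNF761 at −0.49, short of the 1.5-fold threshold. ZNF28 overlaps ZNF468 on the same strand, ZNF468 overlaps ZNF320, ZNF525 overlaps ZNF765, and ZNF761 overlaps TPM3P9. How the authors' counting treated reads in the shared stretches is not given in the sources used here, and its effect on these values was not tested.

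**Figure D2:**
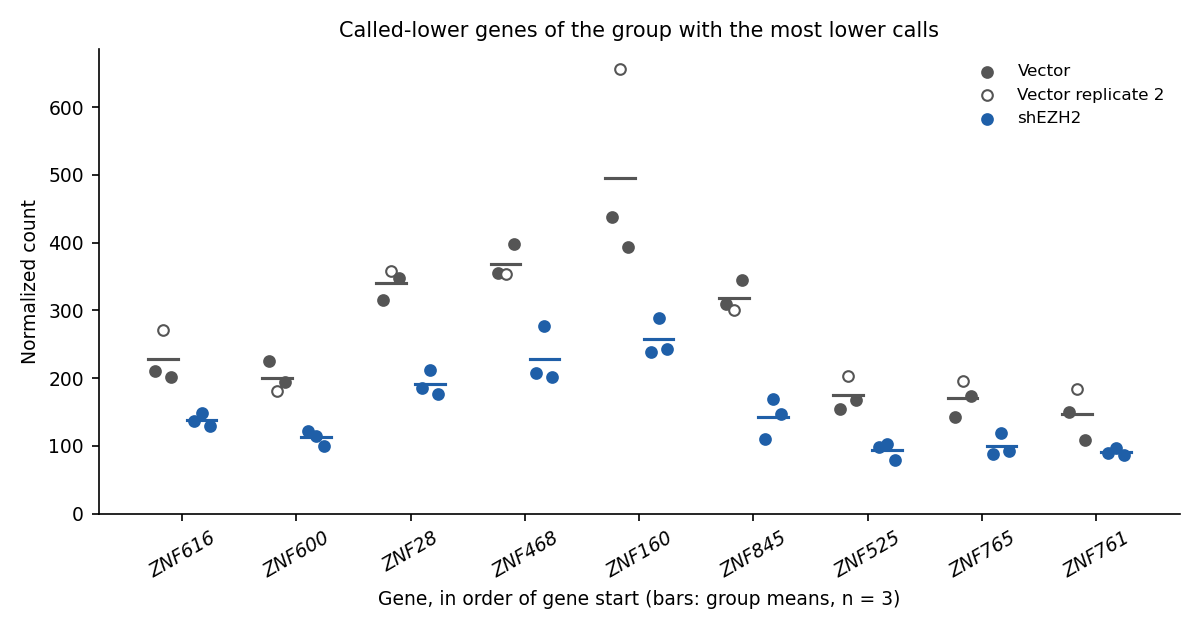
Normalized counts (vertical axis, from 0) of the 9 genes called lower between ZNF175 and ZNF331, in order of gene start, in each Vector (grey; replicate 2 open) and shEZH2 (blue) library; bars are group means (n = 3). For every gene the 3 shEZH2 libraries lie below the 3 Vector libraries, and Vector replicate 2 of ZNF160, at 657, is the highest point.

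The group was not uniform. The called-lower genes started between ZNF616 and ZNF761, a stretch of 22 tested members, and none of the 9 members before ZNF616 was called, although in all 9 apart from ZNF432 the shEZH2 libraries lay below the Vector libraries. ZNF880 was called higher within the stretch, between ZNF616 and ZNF600, with 89.9, 76.8 and 105 normalized counts in Vector and 137, 157 and 159 in shEZH2 (log2 fold change 0.74, SE 0.18, limma adjusted p = 0.0675), and 0.63 without Vector replicate 2. The 23 members that were not called ran from −0.57 to 0.50, and in 12 of them the shEZH2 libraries all lay below the Vector libraries. ZNF320 (0.48), ZNF528 (0.30) and ZNF701 (0.46) had the opposite arrangement, with the shEZH2 libraries all above the Vector libraries, but were not called. ZNF649, a repressor of LINE-1 elements, had a log2 fold change of −0.34, and ZNF331, an imprinted gene at the end of the group, −0.30, and neither was called.

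Several promoters of this group share sequence. RefSeq (GRCh38.p14) promoters, from 250 bases before to 50 after the start, were matched for 180 of the 203 tested members and 27 of the 33 in the group; of the called members, ZNF28, ZNF221 and ZNF600 had no match. The run of 16 bases held by the most promoters of the group, in capitals, is shown with 7 flanking bases on each side, to show that it stands in called-lower genes and in genes that were not called, with values of either sign:
ZNF525 (chr19:53365638-53365667, plus strand, called lower): cctggccCAGGCCCCGCCCACCTcctcgca
ZNF761 (chr19:53431908-53431937, plus strand, called lower): cctcgtcCAGGCCCCGCCCACCTccttgcg
ZNF813 (chr19:53467674-53467703, plus strand, not called): gcttcgtCAGGCCCCGCCCACCTcccaggt
ZNF320 (chr19:52897776-52897805, minus strand, not called): ccttgttCAGGCCCCGCCCACCTcttcgcg
ZNF701 (chr19:52570211-52570240, plus strand, not called): cctcgatCAGGCCCCGCCCACCTtctcgtt
The run was in 8 of the 27 promoters of the group, in no tested member of the other positional groups, and in 12 of 27305 promoters in all on either strand (0.0439%). Of the 7 called-lower genes of the group with a promoter, 2 held it. The 8 holders ran from −0.91 (ZNF525) to 0.48 (ZNF320) in log2 fold change, so genes that share the run differed in the sign of their values. A shorter motif was common to members on the whole chromosome: CGGAAG, the core bound by ETS factors, stood on either strand in 65.0% of the 180 promoters of tested members and in 22.6% of all promoters. It was in 10 of the 15 called-lower members with a promoter and in 2 of the 7 called higher. GGGCGG, the GC box, whose reverse complement lies inside the run shown above, was in 66.7% of the members' promoters and 48.3% of all, and CCAAT in 53.9% and 39.7%, both strands searched.

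The group from ZNF653 to ZNF791, with gene starts from 11483427 to 12610918, held 3 of the 7 genes called higher among its 13 tested members (23.1%) and none called lower. Over all genes 7.55% were called higher and 7.07% lower. ZNF844 had 26.1, 29.1 and 22.4 normalized counts in Vector and 55.2, 59.1 and 49.6 in shEZH2, so that its groups were well apart. Its log2 fold change was 1.05 (SE 0.22, limma adjusted p = 0.0464), and 1.14 without Vector replicate 2, and it was the only member higher after adjustment with all libraries. ZNF44 had 12.5, 10.5 and 11.2 in Vector and 24.8, 24.8 and 22.0 in shEZH2 (1.00, SE 0.28, limma adjusted p = 0.0924), and 0.95 without Vector replicate 2. ZNF653 (0.81, or 0.89 without that library) overlaps ECSIT on the same strand, and its call was lost in 3 of the 6 fits with 1 library left out. The direction of the group as a whole depended on Vector replicate 2, since its median log2 fold change was −0.04 with all libraries and 0.37 without that library. Its most abundant member, ZNF791, was not called, at −0.54 and at −0.45 without Vector replicate 2, where the group median had the opposite sign. The shEZH2 libraries of ZNF791 all lay below its Vector libraries. Its limma adjusted p was 0.0846 with all libraries and 0.0238 without Vector replicate 2.

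The largest group, from ZNF628 to ZNF446 toward the end of the long arm (gene starts from 55476332 to 58474017), had 57 tested members. Its median log2 fold change was 0.02, or 0.01 without Vector replicate 2, with 1 member called lower and none higher with all libraries. With groups separated by 0.5 Mb it divided in 2: the 15 members from ZNF628 to ZNF71 had a median of 0.24 (0.16 without Vector replicate 2) with 2 below 0, and the 42 from ZNF264 onward one of −0.10 with and without that library. These 15 and 42 members also differed in median GC content (64.8% and 45.2%) and gene length (3851 and 4555 bases), whose part in the difference was not tested. The called gene, ZNF460, had 437, 1064 and 351 normalized counts in Vector and 160.0, 188 and 264 in shEZH2. The groups did not overlap, but Vector replicate 2 was far above the other Vector libraries. The log2 fold change of −1.45 (SE 0.41, limma adjusted p = 0.0924) was −0.97 without it. ZNF460 overlaps AC005261.5 on the other strand, a gene that was itself called lower. ZNF274, which recruits SETDB1 to the zinc finger genes themselves, had 714, 529.7 and 754 in Vector and 610.3, 635 and 622 in shEZH2, groups that overlapped, with a log2 fold change of −0.08, and −0.24 without Vector replicate 2.

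The other groups with at least 5 tested members had medians between these. The 23 members from ZNF101 to ZNF254, had a median of −0.30, or −0.14 without Vector replicate 2, with 2 called lower (ZNF708 at −0.77 and ZNF714 at −0.62) and 1 higher (ZNF93). ZNF93, a repressor of LINE-1 elements, had 9.41, 6.99 and 8.15 normalized counts in Vector and 17.1, 22.4 and 14.3 in shEZH2, low values that did not overlap (log2 fold change 1.03, SE 0.34, limma adjusted p = 0.136). It was at 0.93 without Vector replicate 2, and its call was lost without shEZH2 replicate 2. ZNF91, which represses SVA elements, had overlapping groups and a log2 fold change of −0.35, or −0.14 without Vector replicate 2. These genes too carry a common promoter run, shown because its holders include one gene called higher and one called lower:
ZNF93 (chr19:19900809-19900838, plus strand, called higher): tgatcacATCTTCTGTCACTCAGgtcctga
ZNF714 (chr19:21082063-21082092, plus strand, called lower): tgatcacATCTTCTGTCACTCAGggcacga
ZNF91 (chr19:23395582-23395611, minus strand, not called): tgatcacATCTTCTGTCACTCAGggcctga
The 16 bases in capitals were in 9 of the 19 promoters matched for this group and in 14 of 27305 promoters in all on either strand (0.0513%).

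In the group from ZNF565 to ZNF573 the median of 23 members was −0.15, or −0.12 without Vector replicate 2, and 2 were called lower. ZNF260 had 323, 346 and 371 normalized counts in Vector and 199.96, 234 and 213 in shEZH2 (log2 fold change −0.68, SE 0.14, limma adjusted p = 0.0429), and was at −0.68 without Vector replicate 2 as well. With a GC trend removed it was at −0.52, short of the 1.5-fold threshold. ZNF146 had 2261, 2096 and 2306 in Vector and 1379, 1699 and 1447 in shEZH2. Its groups did not overlap, and its log2 fold change of −0.56 (SE 0.14, limma adjusted p = 0.0671) was −0.60 without Vector replicate 2, where it was called. ZNF568 had a log2 fold change of −0.44 and ZNF382 one of −0.16, and neither was called. The groups from ZNF575 to ZNF180 (23 members), from ZNF557 to ZNF846 (13) and from ZNF302 to ZNF792 (5) had medians of −0.18, −0.20 and −0.09, and −0.17, −0.15 and −0.16 without Vector replicate 2. ZNF575, in the first of these, was called higher (0.76, or 0.85 without Vector replicate 2), kept the call in 3 of the 6 fits with 1 library left out, and overlaps ETHE1 on the other strand.

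Away from the larger groups, ZNF333 stood alone with no other tested member within 1 Mb. It had 490.4, 546 and 484 normalized counts in Vector and 315, 308 and 294 in shEZH2, with little spread in either group. The log2 fold change was −0.73 (SE 0.13, limma adjusted p = 0.0281), and −0.67 without Vector replicate 2, while with a length trend removed it was −0.55, just short of the 1.5-fold threshold. It overlaps ADGRE2 on the other strand, and the sources used here do not say whether the counting used strand. ZNF121, the most abundant member of its group, had 1249, 2963 and 1354 in Vector and 824, 1072 and 1034 in shEZH2, and its log2 fold change of −0.82 was −0.42 and no longer called without Vector replicate 2. ZNF414 had 66.9, 59.4 and 108.0 in Vector and 185, 149 and 129 in shEZH2 (1.01, SE 0.26, limma adjusted p = 0.0800), and 0.84 without Vector replicate 2.

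The level in each library was also described relative to the mean of Vector replicates 1 and 3, which places those 2 near 0 by construction. In the ZNF175 to ZNF331 group, singled out for its calls in these same libraries, the median log2 difference was −0.46, −0.33 and −0.39 in shEZH2 replicates 1, 2 and 3, and 0.13 in Vector replicate 2. Over all 203 members the corresponding medians were −0.18, −0.04 and −0.15 in shEZH2 and 0.13 in Vector replicate 2. In the ZNF653 to ZNF791 group Vector replicate 2 was at 0.25, close to shEZH2 replicate 2 at 0.27 and above replicate 1 at 0.08.

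**Figure D3:**
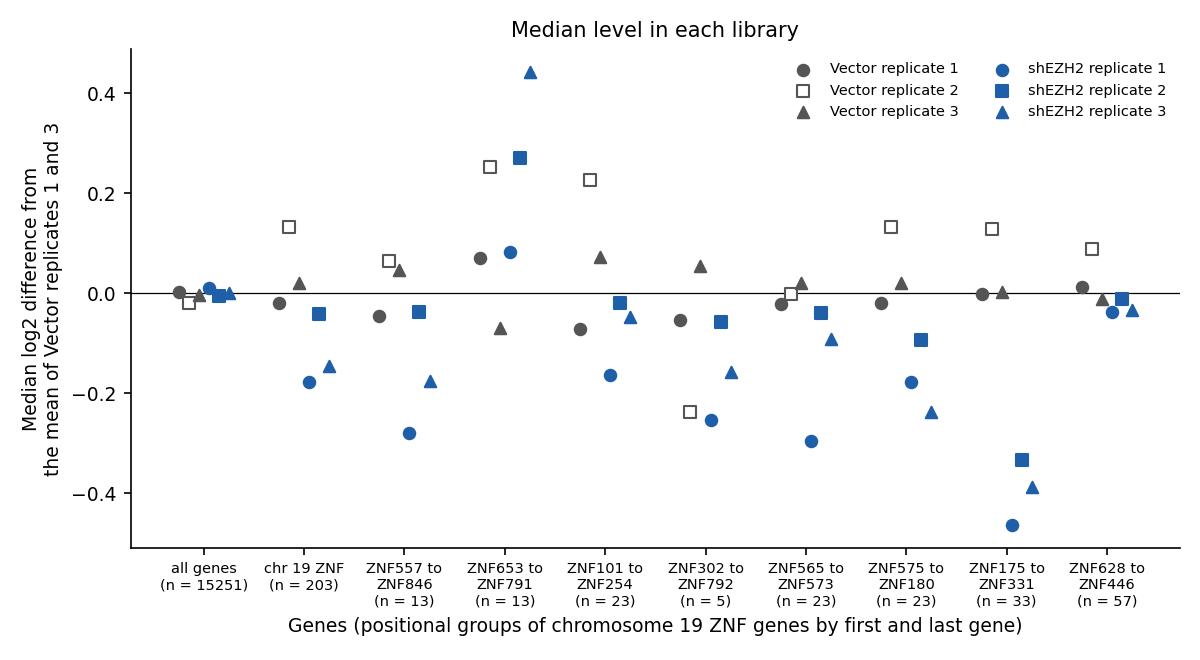
Median log2 difference from the mean of Vector replicates 1 and 3 (vertical axis) in each library, for all genes tested, for the 203 chromosome 19 ZNF genes and for each positional group with at least 5 of them (horizontal axis, named by first and last gene); Vector libraries are grey, with replicate 2 open, and shEZH2 libraries blue. The ZNF175 to ZNF331 group has all 3 shEZH2 libraries at −0.33 or lower, and Vector replicate 2 lies above the other Vector libraries there at 0.13.

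Gene length and base composition moved with the change. Genes were divided into quintiles of the length given in the table, cut over all genes tested. This length is not the genomic span: ZNF91 runs from 23304991 to 23395560 and is listed at 10397 bases. From the shortest to the longest quintile the members (9, 39, 60, 57 and 38) had median log2 fold changes of 0.27, 0.02, −0.23, −0.31 and −0.31. Over all genes tested these medians were 0.22, 0.19, 0.07, −0.04 and −0.18, so genes of greater listed length were lower in general. The members were below all genes of like listed length in every quintile but the shortest. The ZNF genes of other chromosomes, at 0.15, 0.09, −0.08, −0.16 and −0.33, were below all genes in every quintile, so this was not particular to chromosome 19. The trend was flatter without Vector replicate 2, with 0.13, −0.04, −0.16, −0.18 and −0.21 for the members and −0.002, 0.04, 0.02, −0.02 and −0.06 for all genes. For the ZNF genes of other chromosomes these medians were −0.13, −0.007, −0.07, −0.10 and −0.21. In Vector replicate 2 itself, the median log2 difference over all genes ran from −0.54 in the shortest quintile to 0.42 in the longest, and that of the members from −0.49 to 0.24. With a smooth length trend removed within each library, 21 members were called lower and 5 higher, 11 of the lower ones in the ZNF175 to ZNF331 group.

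The members' transcripts were poor in G and C, with a median of 42.4%, against 48.3% for all tested protein-coding genes and 61.0% for the other protein-coding genes of chromosome 19. In the quintile of all genes with the lowest GC content, 71 members had a median log2 fold change of −0.38, and all 3002 genes one of −0.14. In the quintile with the highest, 19 members were at 0.27 and all genes at 0.18. Without Vector replicate 2 the members' values were −0.24 and 0.24. With the GC trend removed within each library, an alternative chosen after the data were seen, 14 members were called lower, 8 of them in the ZNF175 to ZNF331 group, whose median was then −0.38. By number of linker copies, the 30 members with none had a median log2 fold change of 0.15, the 63 with 1 to 5 one of −0.23, the 66 with 6 to 10 one of −0.20 and the 42 with over 10 one of −0.35, with 0, 2, 7 and 8 called lower. These medians were 0.06, −0.17, −0.15 and −0.20 without Vector replicate 2, with 0, 2, 8 and 5 called lower, so that members with no copy stood apart from the rest without a steady trend among the others. Linker number and GC content were themselves related over 201 members (Spearman's rho of −0.55, a description over genes from the same libraries).

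The partners of KRAB zinc finger proteins were taken as a list of 27 co-repressors and heterochromatin genes, all tested. In it 5 genes were called lower and 1 higher, against 7.07% and 7.55% of all genes, or 3 and 1 without Vector replicate 2, against 5.64% and 7.05%. The median log2 fold change was −0.15, or 0.005 without Vector replicate 2. TRIM28 (−0.15) and SETDB1 (−0.05), the core of the pathway, were not called, and their groups overlapped. CBX1, an HP1 protein, had 1313, 837 and 1305 normalized counts in Vector and 517, 442 and 498 in shEZH2 (log2 fold change −1.22, SE 0.20, limma adjusted p = 0.0240), and −1.43 without Vector replicate 2. ATRX, a chromatin remodeller (−1.32), and RESF1, a SETDB1 partner listed as KIAA1551 (−1.12), were also called lower, and remained so without that library at −0.97 and −1.02. MPHOSPH8, of the HUSH complex (−0.66), and CBX5, another HP1 protein (−0.74), were called only with Vector replicate 2. Without it their log2 fold changes were −0.56 and −0.44, short of 1.5-fold, with the groups still apart and limma adjusted p of 0.00715 and 0.0238, against 0.0596 and 0.161 with all libraries. UHRF1, which guides maintenance DNA methylation, was called higher (0.76, or 0.90 without Vector replicate 2). A second list held C2H2 genes of chromosome 19 with other names, of which 9 were tested. None was called lower, and ZIK1 (log2 fold change 1.48, SE 0.23, limma adjusted p = 0.0203) was called higher, at 1.52 without Vector replicate 2. ZSCAN18 was also called higher, at low levels of 13.6, 4.66 and 14.3 normalized counts in Vector and 38.1, 22.4 and 25.8 in shEZH2. Its log2 fold change was 1.43 (SE 0.46, limma adjusted p = 0.129), and 0.96 without Vector replicate 2. Both genes lie within the span of the ZNF628 to ZNF446 group, in which no member was called higher with all libraries.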

How the data were processed

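Polyadenylated RNA was sequenced on an Illumina instrument. Per the labels, the authors' read counting was done in featureCounts (v1.5.0-p3), followed by DESeq2 (1.20.0). The deposited signal values are these counts divided by 1 size factor per library; 100% were whole multiples of 1 read (tolerance 0.001), so reads were recovered. All 6 columns were used, 0 left out. The authors' own fold changes and p-values in the table were not used. Gene positions are GRCh38, although the submitters' notes name hg19: 93.3% of members share an end with RefSeq GRCh38 (within 1000 bases) and 2.51% with GRCh37. The aligner and strandedness are not given in the sources used here.

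Groups were compared with limma 3.58.1 (trend) on log2(normalized count + 1) over 15251 genes with a mean of at least 10, without a replicate block. The genes named are those with an adjusted p under 0.05, the largest called changes with a mean of at least 50 and no overlap, members of known role, the most abundant of each positional group, and co-repressors called; ZNF44, ZNF443, ZNF653, ZNF708, ZNF320, ZNF528, ZNF701 and other called members named for their calls, the promoter examples and the second list's 2 calls were chosen after their values were seen. Members, lists and rules were chosen with earlier results of these data known. Alternatives used DESeq2 1.42.0 and edgeR 4.0.16 on recovered reads, other scalings, pseudocounts (0.1, 5) and minimums, each library left out, and loess removal of length or GC trends. The models were tested on simulated data. R 4.3.3 and Python 3.11.15 (pandas 2.3.3, matplotlib 3.10.9) were used.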

Additional observations from a re-analysis of the deposited data

How the results depend on the processing

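The count called lower in the ZNF175 to ZNF331 group was 8 to 12 under the alternatives at 1.5-fold (9 to 10 with each library left out) and 9 with a gap of 0.5 Mb, and 1 at a 2-fold threshold, at which 2 members in all were called lower and 4 higher. Its median was −0.48 with a minimum mean of 50 and ran from −0.47 to −0.39 with each library left out. The members' median ran from −0.23 to −0.13 and EZH2's log2 fold change from −1.12 to −0.96 with each library left out. With each library left out, 14 to 24 members were called lower and 6 to 9 higher. Called-higher members numbered 2 with a minimum mean of 50 and 4 under the replicate block with the length trend removed. Adjusted calls were the least stable, at 0 to 21 lower and 0 to 6 higher with each library left out. Adjusted higher calls were 3 with DESeq2, 2 with the GC trend removed, and 0 with edgeR (RLE), with no minimum and with a minimum mean of 50, where 7, 10 and 2 were called at the unadjusted p. Adjusted lower calls were 17 with DESeq2, 3 with no minimum and 12 with the length trend removed.

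Correlations of deviations from the group mean were 0.28, 0.22 and −0.11 for equal replicate numbers, and from −0.31 to 0.25 for unequal ones. Deviations from a mean of 3 libraries depend on each other, so these values cannot tell whether the numbers pair the libraries. With the replicate block 2 members were lower and 0 higher after adjustment, and 19 and 6 were called, 9 lower in the ZNF175 to ZNF331 group; with the block and the length trend removed, 10 were lower and 0 higher after adjustment. Signs reversed for ZNF45 (from −0.18 to 0.12) and ZNF274 (−0.24 to 0.017) and ZNF43 (−0.047 to 0.47) with single libraries left out. With the length trend removed, with or without the replicate block, ZNF274 was at 0.017 and ZNF382 at 0.015. None of these 4 was called, and the cause was not tested. The minimum left 36 members untested.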
